A study of Mus musculus with 6 samples.

Results

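The BAF complex (the mammalian SWI/SNF chromatin remodeller) was examined through 10 genes whose products are exchanged when neural progenitors become neurons, together with its ATPases. The genes were taken by symbol from a table of 35274 genes, each matched 1 row, and all 10 were abundant enough to be tested, as were 14518 genes in all (mean over libraries no lower than 1 TPM). They were 4 subunits of the progenitor form (Actl6a, Phf10, Dpf2 and Ss18), 4 of the neuronal form (Actl6b, Dpf1, Dpf3 and Ss18l1) and the 2 ATPases Smarca2 and Smarca4.

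BAF uses the energy of ATP to move or evict nucleosomes, and it is assembled from many subunits, several of which come in alternative versions. In progenitors the complex carries the actin-related protein Actl6a (BAF53a), Phf10 (BAF45a) and Ss18. When cells leave the cell cycle these are replaced by Actl6b (BAF53b), Dpf1 or Dpf3 (BAF45b and BAF45c) and Ss18l1 (CREST), and the neuronal complex is known for its role in dendrite growth. Dpf2 (BAF45d) is usually grouped with the progenitor form but is also described as a general subunit.

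By the labels, RNA came from dentate neuroepithelium, the ventricular wall from which the dentate gyrus of the hippocampus forms, of mice at E14 (embryonic day 14). The 6 libraries comprised 2 of wild type (WT in the titles), 2 of genotype SOX11f/+ (HTZ, labelled haplodeficient) and 2 of genotype SOX11f/f (HOMO, labelled homodeficient). A floxed (f) allele is inactivated only by Cre recombinase, but which Cre line was used, if any, is not given in these sources. Nor do they state whether replicates are separate embryos, and p-values therefore reflect spread among libraries that may be no more than technical.

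Sox11, the targeted gene, stood at 191.9 and 130.2 TPM (wild type), 56.1 and 50.1 (heterozygous) and 5.23 and 5.06 (homozygous), following the labels. TPM is a level scaled for transcript length and to one common library total, and the depth of the libraries is unknown. Libraries differed in markers of several cell types. Summed over 9 choroid plexus genes, they held 8.69 and 10.2 TPM in the wild type libraries, against 11652 and 17.1 with 1 floxed allele and 6666 and 213 with 2. Summed over 10 genes of multiciliated ependyma they held 12.6 to 13.4 TPM in wild type and 159 to 503 in floxed libraries, with Ccdc153 and Tmem212 at 0 in at least 1 library. Microglial genes (10, none at 0) summed to 192 to 228 TPM in wild type and 305 to 474 in floxed libraries, and astrocyte genes (8, none at 0) to 1605 to 1837 and 2616 to 3541. Apoe made up much of the astrocyte sum, at 830 and 1107 TPM in wild type and 1666 to 2285 in floxed libraries. Of the 8 astrocyte genes, 6 were higher than wild type without overlap in heterozygous and 6 in homozygous libraries, where 17.1% and 23.6% of all genes were. Oligodendrocyte lineage genes (9, none at 0) summed to 170 to 257 TPM in wild type and 288 to 404 in floxed libraries. Markers of progenitors, of neurons and of the dentate lineage were present in every library. The 14 progenitor genes summed to 3746 to 3923 TPM in wild type and 3993 to 4574 in floxed libraries. The 15 neuronal genes summed to 6536 to 9123 TPM over all libraries. The 6 genes of the dentate and hippocampal lineage summed to 418 to 642 TPM in wild type and 294 to 326 in floxed libraries. The progenitor and dentate sums did not overlap between wild type and floxed libraries. Fabp7 made up much of the progenitor sum, at 2268 and 2477 TPM in wild type and 2525 to 3008 in floxed libraries. Of the 14 progenitor genes, 7 had a log2 difference below 0 in heterozygous and 6 in homozygous against wild type libraries. Their medians were 0.05 and 0.13. A separate list of mature neurons (10 genes) summed to 828 and 1321 TPM (wild type), 764 and 1384 (heterozygous) and 1212 and 1814 (homozygous). Replicate 2 was the higher in each genotype. Among single markers, Gfap stood at 268 to 576 TPM over all libraries, Camk2a at 121 to 496 and Slc17a7 at 79.8 to 393. Of 6 erythroid genes, Hbb-y stood at 0 in every library and Hba-a1 at 198 to 343 TPM. Genes of proliferating cells (15, none at 0) summed to 515 to 891 TPM. Whether tissue and age matched the labels was not tested. In bulk tissue, fewer cells of a type and less RNA per cell cannot be told apart.

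The exchange at the Actl6 position is known to be driven in part by microRNAs: miR-9-3p (formerly miR-9*) and miR-124-3p bind the Actl6a messenger in neurons. The mature miR-9-3p sequence from RefSeq (GRCm38.p6, encoded at 3 loci) and its match in the 3′ UTR of Actl6a are shown because this pairing is the known link between the progenitor and neuronal versions. Capitals mark the seed (bases 2 to 8) and the bases complementary to it.
mmu-miR-9-3p: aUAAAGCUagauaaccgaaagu
Actl6a site: tcaacgtctgtAGCTTTAgtacactcagga
The match begins at base 38 of the 371-base 3′ UTR of the longest-UTR Actl6a transcript of GENCODE vM21. The same 7 letters (AGCTTTA, read on the transcript strand) occur in 11.4% of 20831 3′ UTRs, and in 2.39% of the 1796 whose length is within 20% of that of Actl6a. Among the other members only Smarca2 held the match. The microRNAs themselves were not measured here, and a match is a description, not proof of a site.

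At the level of messenger RNA the neuronal versions were abundant in bulk wild type tissue. That tissue also held neuronal RNA, with the 15 neuronal genes at 7369 and 9123 TPM in sum. Which cells carried the subunits was not measured. On the TPM scale, which allows levels of different genes to be set side by side, Actl6b was the highest of the 10 at 132 ± 2.72 TPM (SD, n = 2 libraries here and below). It was followed by the ATPases Smarca2 at 131 ± 12.1 and Smarca4 at 115 ± 15.0, and neighbours among these 3 overlapped. Dpf1 came next at 95.02 ± 3.85 TPM, separated from Smarca4 above and from Phf10 below. The remaining 6 formed a group whose neighbours all overlapped: Phf10 at 57.3 ± 0.396, Dpf2 at 57.0 ± 7.34, Dpf3 at 49.5 ± 6.05, Ss18 at 49.4 ± 10.8, Ss18l1 at 45.4 ± 2.78 and Actl6a at 38.1 ± 12.7 TPM. Actl6a, the least abundant, also differed most, relative to its mean, between the 2 wild type libraries.

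**Figure D1:**
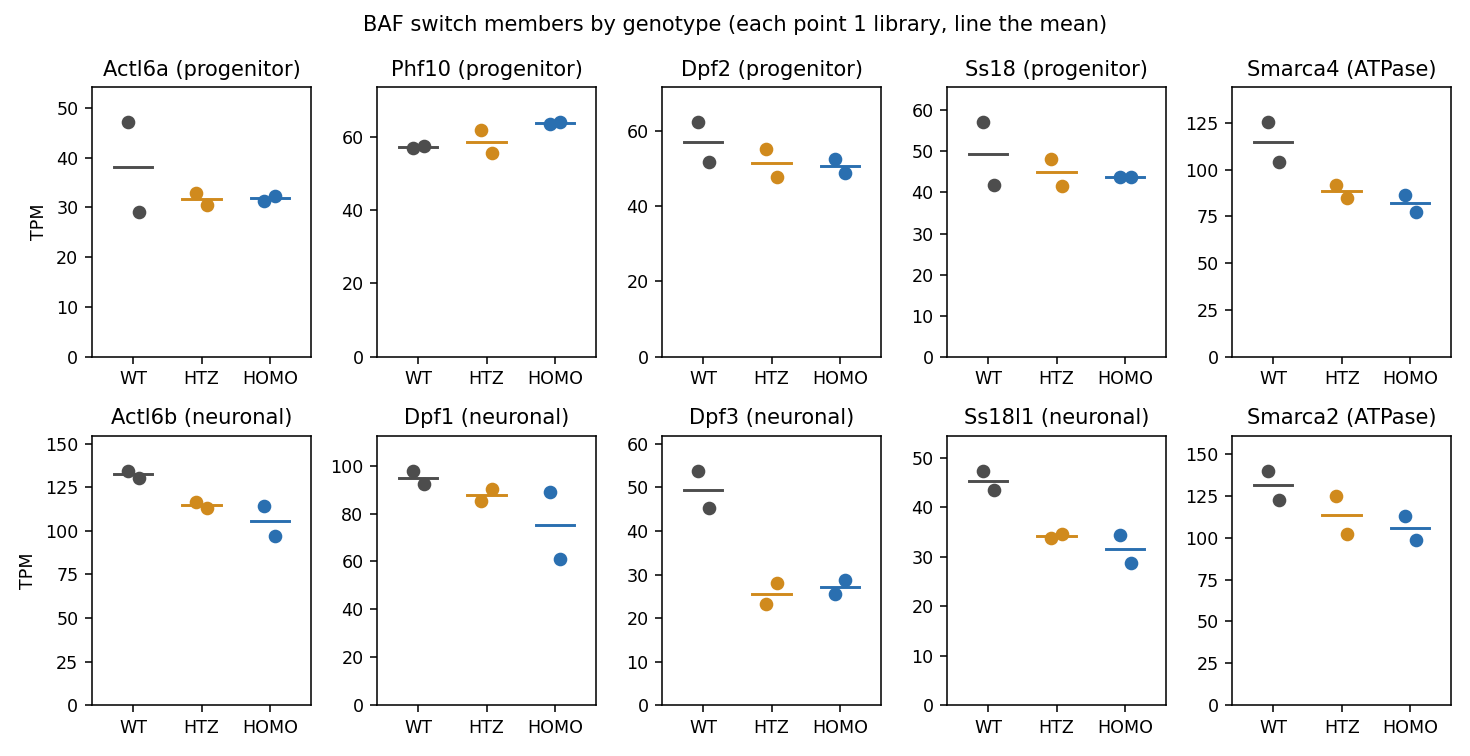
TPM (vertical axis, from 0, scaled per gene) of the 10 members in wild type (WT), heterozygous (HTZ) and homozygous (HOMO) floxed Sox11 libraries; each point is 1 library and each line a mean of 2. As deposited, wild type points lie above all 4 floxed points for Actl6b, Dpf1, Dpf3, Ss18l1 and Smarca4, and Dpf3 goes from 49.5 to 25.6 and 27.2 TPM.

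As deposited, each neuronal subunit stood lower in floxed than in wild type tissue, by the most for Dpf3, while the progenitor subunits overlapped between genotypes or, for Phf10 in homozygous tissue, stood slightly higher. No member passed the test over all genes in any of the 3 comparisons. Members called numbered 0 of 10 with limma at an adjusted p of 0.05 in heterozygous against wild type, where 0.0344% of all genes were called, 0 of 10 in homozygous against wild type, against 0.0413%, and 0 of 10 between the floxed genotypes, against 0.0138%. At an unadjusted p under 0.05, 3, 4 and 0 of the 10 were reached in the same order, all lower, where 7.63%, 9.8% and 0.902% of all genes were lower at that p. All 4 floxed libraries lay below both wild type libraries for 5 of 10 members, namely the 4 neuronal subunits and Smarca4, and for 21% of all genes tested. After TMM rescaling between libraries (trimmed mean of M values, added after seeing the data) Dpf1 overlapped with wild type and left 4 of 10, against 17.3% of all genes. Without the 2 libraries richest in choroid plexus RNA it was 7 of 10, against 32.4%, with Smarca2 and the progenitor subunit Dpf2 added. Each floxed genotype then held 1 library. The heterozygous one lay below both wild type libraries for 9 of 10 members, 3 of the 4 progenitor subunits among them, and for 46.3% of all genes. Taken singly, heterozygous libraries lay below wild type without overlap for 5 of 10 members (28.9% of all genes) and homozygous libraries for 6 of 10 (30.7%), Smarca2 being the sixth. They lay above it for 0 of 10 (17.1% of all genes) and 1 of 10 (23.6%), the latter Phf10. Between the floxed genotypes 0 of 10 lay lower and 1 of 10 higher without overlap, where 13.7% and 15.3% of all genes did so.

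Dpf3, a reader of acetylated histones through its tandem PHD fingers, is the gene with the widest difference. It stood at 53.8 and 45.2 TPM for wild type, 23.2 and 27.96 for heterozygotes and 25.6 and 28.8 for homozygotes. Both floxed genotypes lay below wild type, with mean TPM differing by -48.4% in heterozygous and -45.0% in homozygous tissue, and they overlapped with each other. On the log2(TPM + 1) scale the difference from wild type was -0.93 (SE 0.15, limma adjusted p = 0.13, 95% interval -1.28 to -0.57) in heterozygous and -0.84 (SE 0.15, limma adjusted p = 0.079, 95% interval -1.19 to -0.48) in homozygous libraries. The homozygous difference passed when only the libraries of these genotypes were fitted (limma adjusted p = 0.0365). That fit called 333 of all genes higher and 60 lower, against 3 and 3 in the main fit. It also passed without either heterozygous library, but these are not separate passes. A single heterozygous library adds nothing to the estimate of the spread, which then came from the same wild type and homozygous libraries. The heterozygous difference passed without heterozygous replicate 2 (-1.06, limma adjusted p = 0.0328). Without the 2 libraries richest in choroid plexus RNA (heterozygous replicate 1 and homozygous replicate 1) the differences were -0.80 and -0.75 (limma adjusted p = 0.24 and 0.12). Over the 14 alternatives the adjusted p of limma ran from 0.0365 to 0.468 for homozygous and from 0.0328 to 0.777 for heterozygous libraries. Between floxed genotypes Dpf3 differed by 0.09 (SE 0.15, 95% interval -0.26 to 0.45), against -3.14 for Sox11, which was called there (limma adjusted p = 0.0073).

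Dpf3 spans bases 83213745 to 83487716 of chromosome 12 (minus strand; GRCm38, GENCODE vM21), on the same chromosome as Sox11 and 55.9 megabases from it. Its promoter from RefSeq (GRCm38.p6, minus strand, chr12:83487687-83487986, from 250 bases before the start to 50 after) is printed because Dpf3 is the member with the largest difference and Sox11 is a DNA-binding factor. Capitals mark a core of the SOX family motif, searched as ACAAAG and ACAATG on both strands.
Dpf3 promoter: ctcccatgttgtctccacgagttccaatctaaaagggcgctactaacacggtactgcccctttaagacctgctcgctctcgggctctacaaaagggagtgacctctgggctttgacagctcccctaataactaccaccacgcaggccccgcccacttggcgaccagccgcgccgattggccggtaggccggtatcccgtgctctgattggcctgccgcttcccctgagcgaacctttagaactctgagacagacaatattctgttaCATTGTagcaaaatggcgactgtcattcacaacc
The match begins at base 17, counted from the start in RefSeq, and reads ACAATG on the opposite strand. The GENCODE span of Dpf3 starts at another base, 83487716 on the minus strand, so the count does not apply to it. One or both cores occur in 28.6% of 32851 promoters of the same length. Of the 9 members looked up, Dpf3 alone held a match. No binding was measured, and the absence of these letters from a window says nothing of binding elsewhere.

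Dpf1 (chromosome 7, 29303951 to 29318243), the other neuronal version at this position, showed a smaller difference. It stood at 97.7 and 92.3 TPM (wild type), 85.2 and 90.2 (heterozygous) and 89.1 and 61.1 (homozygous). The wild type libraries lay just above all others as deposited but not after TMM rescaling (90.7 and 94.0, against 93.1 in heterozygous replicate 2 and 90.8 in homozygous replicate 1), and homozygous replicate 2 stood apart from its partner. The log2 difference was -0.11 (SE 0.17, limma adjusted p = 0.78) in heterozygous and -0.36 (SE 0.17, limma adjusted p = 0.32) in homozygous libraries, the latter -0.09 without homozygous replicate 2. The ratio of Dpf1 to Dpf3 was 1.82 and 2.04 in the wild type libraries, against 3.68 and 3.23 with 1 floxed allele and 3.48 and 2.12 with 2, with no overlap between wild type and floxed tissue. The coding sequences of Dpf1 and Dpf3 are 73.2% identical over 1109 aligned bases and share no identical stretch over 31 bases, so a longer read within the coding sequence differs between them.

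Ss18l1 (CREST; chromosome 2, 180042509 to 180070201), a calcium-responsive transcriptional coactivator, stood at 47.4 and 43.4 TPM for wild type, 33.9 and 34.7 for heterozygotes and 34.5 and 28.7 for homozygotes. Floxed and wild type libraries did not overlap, and mean TPM differed from wild type by -24.5% (heterozygous) and -30.5% (homozygous). The log2 difference was -0.39 (SE 0.13, limma adjusted p = 0.30) in heterozygous and -0.51 (SE 0.13, limma adjusted p = 0.13) in homozygous libraries, neither of which passed. Its lowest adjusted p over the alternatives was 0.075 with limma, in homozygous against wild type.

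Actl6b (BAF53b), restricted to neurons and linked to dendrite growth and memory, lies on chromosome 5 from 137553517 to 137569582 (GRCm38). It stood at 134 and 130.4 TPM (wild type), 117 and 113 (heterozygous) and 114 and 97.2 (homozygous). Every floxed library lay below wild type, and the floxed genotypes overlapped. Mean TPM differed from wild type by -13.3% and -20.1%, here and below with heterozygous first and homozygous second. The log2 difference was -0.20 (SE 0.10, limma adjusted p = 0.43) and -0.32 (SE 0.10, limma adjusted p = 0.19). The 3 genes most alike to Actl6b over the 6 libraries, among 11453 with a mean of at least 5 TPM, were Zfp658, Dyrk2 and Rnf219 (Pearson r = 0.995, 0.994 and 0.994). In all 518 genes reached r = 0.9 or more, so likeness over 6 libraries that share their scaling is common.

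The neuron markers are given beside the neuronal subunits. Their 15 genes, which include early and later markers, summed to 7369 and 9123 TPM in the wild type libraries, against 6536 and 7791 with 1 floxed allele and 6872 and 6593 with 2, and their median log2 difference from wild type was -0.17 and -0.27, with 0 called. The sums of heterozygous and wild type libraries overlapped, whereas both homozygous sums lay below wild type. In the 2 comparisons 3 and 4 of the 15 genes lay above 0. Without overlap 6 and 9 of the 15 lay lower, where 28.9% and 30.7% of all genes did so. Higher without overlap were 0 and 1 of the 15, where 17.1% and 23.6% of all genes were. The 10 genes of mature neurons had medians of 0.11 and 0.32, and the 6 genes of the dentate and hippocampal lineage -0.78 and -0.77, with 0 called in either list. The median of the 4 neuronal subunits was -0.30 and -0.44, and that of all genes tested -0.06 and -0.04. Whether the neuronal or dentate content of the libraries had a part in the lower neuronal subunits was not tested.

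The median difference of the progenitor subunits (-0.13 and -0.16) was smaller than that of the neuronal ones (-0.30 and -0.44). Single genes did not all follow. In heterozygous libraries Actl6a (-0.22) differed by more than Actl6b (-0.20) and Dpf1 (-0.11). The sets were not compared by a test. Actl6a (BAF53a; chromosome 3, 32706298 to 32726973), a partner of the ATPase in the progenitor complex and needed for progenitor proliferation, stood at 47.1 and 29.1 TPM for wild type, 32.8 and 30.4 for heterozygotes and 31.3 and 32.4 for homozygotes. Floxed values lay between the wild type ones, and wild type replicate 1 set the sign of the mean difference. The log2 difference was -0.22 (SE 0.21) and -0.21 (SE 0.21), with 95% intervals of -0.73 to 0.28 and -0.72 to 0.29 (limma adjusted p = 0.64 and 0.60). Without wild type replicate 1 it was 0.11 and 0.12. Sar1a, Pde1b and Golim4 were the genes most alike to Actl6a (r = 0.996, 0.993 and 0.992), and each was also highest in wild type replicate 1. That library also held the most RNA of the 15 proliferation genes, at 891 TPM in sum, against 640 in wild type replicate 2 and 515 to 696 in floxed libraries. Exons of Actl6a share 452 bases with those of Mrpl47 on the opposite strand, and without strand information reads there cannot be assigned. A pseudogene of Actl6a, Gm13607, 93.9% identical over 539 bases, was listed at 0.19 TPM or less.

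Phf10 (BAF45a; chromosome 17, 14945009 to 14961273), a double PHD finger protein of the progenitor and PBAF complexes, was the member that stood higher in homozygous tissue. It was at 57.0 and 57.6 TPM (wild type), 61.8 and 55.5 (heterozygous) and 63.5 and 64.0 (homozygous). Homozygous libraries lay above the other 4. Against wild type alone, 23.6% of all genes tested were likewise higher in homozygous libraries without overlap. The difference of homozygous from wild type was 0.15 on the log2 scale (SE 0.10, 95% interval -0.08 to 0.39, limma adjusted p = 0.44), and 0.03 (SE 0.10) in heterozygous libraries. Phf10 exons share 470 bases with 1600012H06Rik on the opposite strand, which stood at 20.3 to 23.7 TPM.

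Dpf2 (BAF45d; chromosome 19, 5896516 to 5913010) stood at 62.2 and 51.8 TPM in the wild type libraries, against 55.1 and 47.8 with 1 floxed allele and 52.5 and 48.9 with 2, and the genotypes overlapped. Its log2 difference was -0.14 (SE 0.13) and -0.16 (SE 0.13), with limma adjusted p of 0.63 and 0.53. Ss18, which is fused to SSX genes in synovial sarcoma, stood at 57.1 and 41.8, 48.2 and 41.7, and 43.7 and 43.9 TPM in the same order. It too overlapped between genotypes, with differences of -0.12 and -0.16 (SE 0.16 for both, limma adjusted p = 0.75 and 0.62), which became 0.10 and 0.06 without wild type replicate 1. The 4 progenitor subunits had a median log2 difference of -0.13 (heterozygous) and -0.16 (homozygous). The 15 proliferation genes had medians of -0.32 and -0.61 with 0 called, and their part in these values was not tested.

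**Figure D2:**
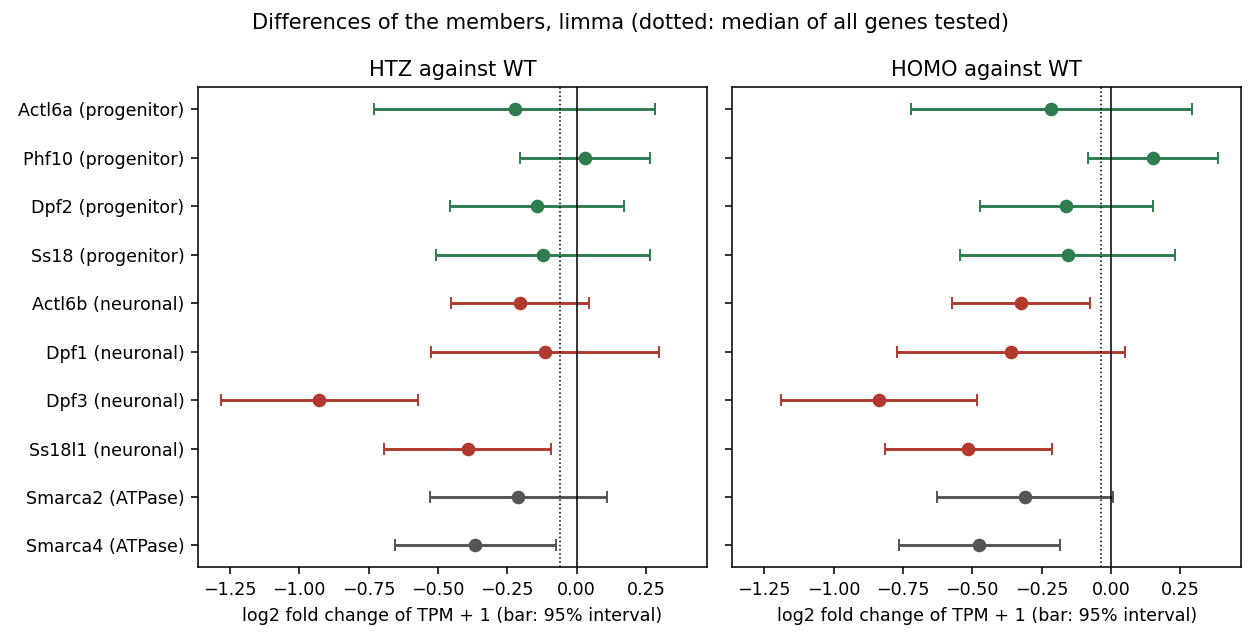
Log2 fold change of TPM + 1 from limma (horizontal axis) for the 10 members in heterozygous (left) and homozygous (right) against wild type libraries, with 95% intervals for each gene alone; the dotted line is the median of all genes tested (-0.06 and -0.04). The interval of Dpf3 runs from -1.28 to -0.57 and from -1.19 to -0.48, and those of the 4 progenitor subunits include 0.

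The ATPases are alternative motors of the complex. Smarca4 (BRG1; chromosome 9, 21616169 to 21704230), the motor required in neural progenitors, stood at 125 and 104 TPM for wild type, 91.8 and 85.1 for heterozygotes and 86.6 and 77.4 for homozygotes. Wild type libraries lay above all floxed ones. The log2 difference was -0.37 (SE 0.12, limma adjusted p = 0.31) and -0.47 (SE 0.12, limma adjusted p = 0.14), neither of which passed. Smarca2 (BRM; chromosome 19, 26605050 to 26778322), whose share grows in differentiated cells, stood at 139.8 and 123 TPM (wild type), 125 and 102 (heterozygous) and 113 and 98.8 (homozygous). Heterozygous and wild type libraries overlapped and homozygous ones lay lower, with differences of -0.21 and -0.31 (SE 0.13 for both, limma adjusted p = 0.50 and 0.29).

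Progenitor and neuronal versions were then compared within each library, as the neuronal share of the summed TPM at each position. Such a share does not depend on how the library was scaled. At the Actl6 position Actl6b held 74.0% and 81.7% in the wild type libraries, against 78.0% and 78.7% with 1 floxed allele and 78.5% and 75.0% with 2. The floxed shares lay within the wild type range, so at this position the balance did not differ beyond the spread of the replicates. Actl6a and Actl6b together summed to 181 and 159.5 TPM in wild type and to 129.5 to 149.6 TPM in floxed libraries.

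The BAF45 position was summed over Dpf1, Dpf2, Dpf3 and Phf10. Dpf1 and Dpf3 together held 56.0% and 55.7% of it for wild type, 48.1% and 53.4% for heterozygotes and 49.7% and 44.3% for homozygotes. All floxed libraries lay below wild type, with mean differences of -5.10 points in heterozygous and -8.81 points in homozygous tissue and a pooled SD within genotypes of 3.07 points. The heterozygous difference was -2.47 points without heterozygous replicate 1 and -7.73 without heterozygous replicate 2. The ratio of Dpf3 to Phf10 was 0.79 to 0.94 in wild type and 0.37 to 0.50 in floxed libraries. That of Dpf1 to Phf10 overlapped between wild type (1.71 and 1.60) and heterozygous libraries (1.38 and 1.63), and was 1.40 and 0.95 in homozygous ones. Ss18l1 held 45.4% and 50.9% of the Ss18 position for wild type, 41.3% and 45.4% for heterozygotes and 44.1% and 39.6% for homozygotes. Heterozygous and wild type shares overlapped there and the homozygous ones lay lower, with a mean difference of -6.32 points and a pooled SD of 3.40 points, and -3.53 points without wild type replicate 2 or -4.05 without homozygous replicate 2. Smarca2 held 52.7% and 54.1% of the ATPase position (wild type), 57.6% and 54.6% (heterozygous) and 56.6% and 56.1% (homozygous). Its share was thus higher in floxed libraries without overlap, by 2.69 and 2.88 points with a pooled SD of 1.37 points. The heterozygous value was 1.18 points without heterozygous replicate 1 and 4.20 without replicate 2. Shares are given with no test: with 2 libraries on each side the smallest two-sided p of an exact permutation test is 0.33.

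**Figure D3:**
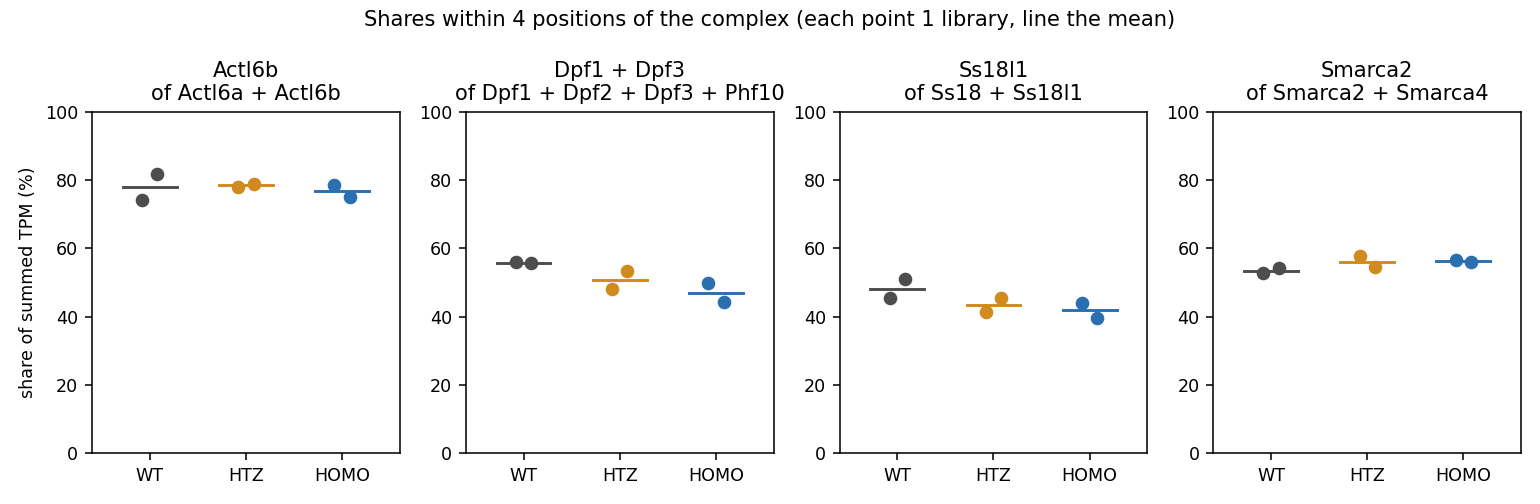
Share of the summed TPM (percent, vertical axis from 0 to 100) held by the neuronal versions, and by Smarca2 among the ATPases, at 4 positions of the complex in each library; lines are means of 2. Actl6b stays between 74.0% and 81.7% in all 6 libraries, while Dpf1 plus Dpf3 lies at 55.7% or more in wild type and at 53.4% or less in floxed libraries.

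Over all 8 switching subunits, the mean log2(TPM + 1) of the neuronal minus that of the progenitor versions was 0.45 and 0.66 (wild type), 0.14 and 0.38 (heterozygous) and 0.24 and 0.04 (homozygous). Wild type lay above all floxed libraries. The mean difference from wild type was -0.30 in heterozygous and -0.41 in homozygous tissue, with a pooled SD of 0.16 within genotypes, and -0.12 between the floxed genotypes, which overlapped. The heterozygous value was -0.17 without heterozygous replicate 1 and -0.19 without wild type replicate 2, and the difference between floxed genotypes ranged from -0.24 to 0.0059 with single libraries left out. Without Dpf2 among the progenitor versions the 3 differences were -0.31, -0.44 and -0.13. Dpf3 weighs most among the neuronal versions, with log2 differences of -0.93 in heterozygous and -0.84 in homozygous libraries. Those of Actl6b, Dpf1 and Ss18l1 ran from -0.39 to -0.11 and from -0.51 to -0.32. The score was not computed without Dpf3. A shift shared by all 8 genes is therefore not shown, nor is a separation of wild type from floxed libraries that holds without Dpf3. The neuronal sum was 333 and 311 TPM for wild type, 259 and 266 for heterozygotes and 264 and 216 for homozygotes, whereas the progenitor sum overlapped at 223 and 180.3, 198 and 175, and 191 and 189 TPM.

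The other subunits gave mixed values, most of them below wild type. Of 21 other subunits of BAF and its PBAF and non-canonical forms, 0 were called with limma in either direction in any of the 3 comparisons. At an unadjusted p under 0.05, 7 were lower in heterozygous and 10 in homozygous against wild type, and 0 higher in either, where 7.63% and 9.8% of all genes were lower at that p. In homozygous against wild type libraries 14 of 21 lay below without overlap and 0 above, where 30.7% and 23.6% of all genes did so. In heterozygous against wild type 14 of 21 lay below and 2 above, where 28.9% and 17.1% of all genes did so; the 2 above, named after their values were seen, were Bcl11b (0.30) and Smarcd3 (0.17). Their median log2 difference was -0.23 in heterozygous and -0.29 in homozygous tissue, and all 4 floxed libraries lay below wild type for 13 of 21, against 21% of all genes. The difference between the neuronal subunits and these others was not tested.

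Smarce1 (BAF57), a DNA-binding subunit common to the forms, stood at 162 and 135 TPM in the wild type libraries, against 129 and 109 with 1 floxed allele and 103 and 102 with 2 (homozygous difference -0.53, SE 0.13, limma adjusted p = 0.12). Smarcc1 and Smarcc2 (BAF155 and BAF170) form the core scaffold, and Smarcc2 is the version known to limit cortical progenitor output. Smarcc1 stood at 66.9 and 57.4, 48.9 and 47.6, and 44.3 and 43.7 TPM, and Smarcc2 at 191 and 163, 146 and 139, and 144 and 127 TPM in the same order. Both lay lower in every floxed library, and the ratio of Smarcc2 to Smarcc1 was 2.84 to 2.86 in wild type and 2.90 to 3.26 in floxed libraries. Bcl7a, a small subunit of the ATPase module, was present at 98.0 and 82.0 TPM in wild type, with all floxed libraries at 63.8 to 66.9 TPM (homozygous difference -0.47, SE 0.11, limma adjusted p = 0.12).

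**Figure D4:**
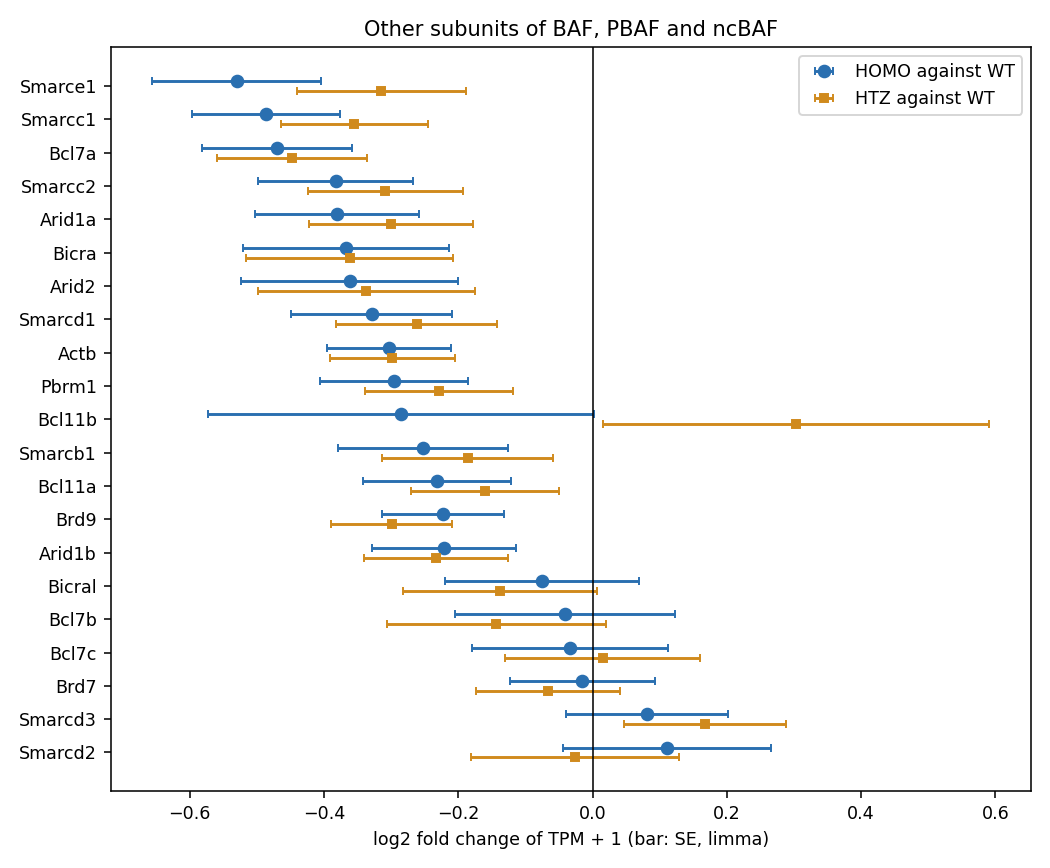
Log2 fold change of TPM + 1 with its SE from limma (horizontal axis) for 21 other subunits, homozygous (circles) and heterozygous (squares) against wild type; both share the wild type libraries. Of the 21, 19 lie below 0 in homozygous and 18 in heterozygous tissue, where 55.2% and 59.8% of all genes tested do so, and 0 were called.

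Regulators of the switch were read from the same fit, which called 0 of 5 with limma in each comparison, where 0.0344%, 0.0413% and 0.0138% of all genes were called. At an unadjusted p under 0.05, 2, 2 and 0 of the 5 were lower, where 7.63%, 9.8% and 0.902% of all genes were. Rest, the repressor that keeps neuronal genes and the miR-9 and miR-124 loci silent in progenitors, was low and overlapped between genotypes, at 4.46 to 6.68 TPM over the 6 libraries. Rcor2, a CoREST corepressor that works with Rest and with histone demethylase, stood at 107 and 71.0 TPM for wild type, 46.7 and 50.9 for heterozygotes and 38.8 and 48.9 for homozygotes. All floxed libraries lay lower, with log2 differences of -0.82 and -0.98 (SE 0.21 for both, limma adjusted p = 0.25 and 0.11). Ptbp1, the progenitor splicing repressor and a target of miR-124, overlapped between genotypes at 65.1 to 97.4 TPM. Its neuronal counterpart Ptbp2 stood at 215 and 178 TPM (wild type), 147 and 144 (heterozygous) and 132 and 126 (homozygous) (log2 differences -0.43 and -0.60, SE 0.11 for both, limma adjusted p = 0.26 and 0.088). The ratio of Ptbp2 to Ptbp1 was 2.21 and 2.71 in the wild type libraries, against 1.68 and 2.20 with 1 floxed allele and 1.83 and 1.46 with 2, with homozygous and wild type libraries apart.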

How the data were processed

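Poly(A) RNA of 6 dentate neuroepithelium libraries was sequenced. The authors deposited TPM values for 35274 genes, and no per-sample column was left out. The tools differ between sources: TopHat 2.0.11 and Cufflinks 2.2.1 on mm10 per the labels' design text, RSEM and FastQC per the submitters' processing notes. How reads with several matches were handled is not given in the sources used. TPM keeps no depth, so no counting interval was computed.

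Fold changes are on the log2(TPM + 1) scale, so those of low genes are understated. Genes averaging 1 TPM or more were fitted in limma 3.58.1 (R 4.3.3; lmFit, contrasts.fit, eBayes with an intensity trend, 1 term per genotype, all 6 libraries, 3 residual degrees of freedom), with Benjamini-Hochberg adjustment over 14518 genes at 0.05. Every adjusted p comes from this fit or a named alternative. The fit was tested on simulated data. Both comparisons with wild type share its libraries. Members, gene lists and tests were chosen with earlier results of these data known. All 10 members were named; of the other subunits and regulators, the largest differences of homozygous against wild type, up to 8 genes including Smarcc1, Smarcc2, Rest, Ptbp1 and Ptbp2. Likeness was Pearson correlation over 6 libraries, taking 3 genes each for Actl6a and Actl6b. Positions and transcripts came from GENCODE vM21 (GRCm38), matching 34845 rows; promoters and microRNAs from RefSeq (GRCm38.p6). Coding sequences were aligned with Biopython 1.88. Alternatives were another pseudocount (0.1), filters, TMM rescaling, eBayes without a trend, only the genotypes compared, a replicate block, each library left out, and the 2 libraries with the most Ttr left out. Overlap counts after TMM rescaling and without those libraries were added after seeing the data.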

Additional observations from a re-analysis of the deposited data

How the results depend on the processing

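No alternative called a member other than Dpf3, which was the 1 of 10 called in homozygous against wild type with only these genotypes fitted. Counts of members called ran from 0 to 1 when single libraries were left out of either comparison with wild type. Counts over all genes depended on the setting. For heterozygous against wild type 5 genes were called, 49 under a pseudocount of 0.1, 1 with no filter, 152 once the 2 libraries with the most Ttr were left out, and 3 to 397 with single libraries left out (least without either wild type library, most without heterozygous replicate 2). For homozygous against wild type 6 were called, 149 under a pseudocount of 0.1, 3 with no filter, 393 with only these genotypes, 491 once those libraries rich in Ttr were left out, 3 to 397 with single libraries left out (least without wild type replicate 1, most without heterozygous replicate 2), and 3 higher and 3 lower as fitted became 3 higher and 2 lower after TMM rescaling. Between the floxed genotypes 2 were called, 1 with no filter, 1 with eBayes without a trend, 12 without the Ttr-rich libraries, and 1 to 5 with single libraries left out (least without homozygous replicate 1, most without homozygous replicate 2). The cause was not tested.

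The replicate block gave 9 and 283 calls over all genes in heterozygous and homozygous against wild type and called 0 members. By the labels, same-numbered replicates share only a number. Deviations of same-numbered libraries correlated at 0.21, -0.09 and 0.35, and the mature neuron sum was higher in replicate 2 of each genotype.

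With the Ttr-rich libraries left out, neuronal minus progenitor versions differed by -0.17 in heterozygous against wild type tissue, and the difference between homozygous and heterozygous tissue was -0.35 for neuronal minus progenitor versions (log2), and -9.02 and -5.88 points for the shares of Dpf1 plus Dpf3 and of Ss18l1. The heterozygous gain of Smarca2 was then 1.18 points. With single libraries left out, the Actl6b share differed from wild type by -3.34 to 4.36 points in heterozygous and -4.96 to 2.75 points in homozygous tissue, the Dpf1 plus Dpf3 share by -7.73 to -2.47 in heterozygous tissue, the Ss18l1 share by -7.59 to -2.003 and -9.11 to -3.53, and the Smarca2 share by 1.18 to 4.20 points in heterozygous against wild type and -1.31 to 1.70 between the floxed genotypes.

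Signs turned for members with small log2 differences. With single libraries left out, heterozygous against wild type tissue gave -0.56 to 0.11 for Actl6a, -0.34 to 0.10 for Ss18 and -0.045 to 0.11 for Phf10. Homozygous against wild type tissue gave -0.55 to 0.12 for Actl6a and -0.38 to 0.064 for Ss18, and both genes lay above 0 without wild type replicate 1. Between the floxed genotypes the ranges were -0.51 to 0.022 for Dpf1, -0.039 to 0.22 for Dpf3, -0.25 to 0.0064 for Ss18l1, -0.045 to 0.061 for Actl6a, -0.12 to 0.083 for Dpf2, -0.14 to 0.068 for Ss18 and -0.24 to 0.043 for Smarca2. Leaving out the libraries richest in Ttr gave -0.045 for Phf10 in heterozygous against wild type, and 0.032 for Dpf2 and 0.071 for Ss18 between the floxed genotypes. TMM rescaling gave -0.0041 for Actl6a there. Where 1 library of a genotype was left, it was assumed to vary like the others.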
